A study of Homo sapiens with 12 samples.

Results

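The germline piRNA pathway genes described here are 10 named genes (PIWIL1, PIWIL2, PIWIL4, TDRD1, TDRD9, MAEL, DDX4, SPOCD1, TEX19 and DAZL), taken by gene symbol from a deposited table of 57773 Ensembl genes. All 10 symbols are in the table; 9 were counted at least once, and 7 passed the filter on low counts. The libraries come from PANC-1, an established human line of pancreatic carcinoma cells used below passage 30. RNA was sequenced after 24 h in 4 groups of 3 libraries: the combination of 30 nM chaetocin and 90 nM MLN8237, 30 nM chaetocin alone, 90 nM MLN8237 alone, and the vehicle DMSO. Chaetocin, a fungal metabolite, is known to inhibit SUV39H1, which methylates histone H3 at lysine 9, and also thioredoxin reductase; MLN8237, or alisertib, inhibits the mitotic kinase Aurora A. One label of the combination spells the Aurora inhibitor with another first digit, and it was read as MLN8237.

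Piwi-interacting RNAs (piRNAs) are short RNAs of animal germ cells that guide PIWI proteins, the germline branch of the Argonaute family, to transposon transcripts. PIWI proteins cut those transcripts in the cytoplasm or, in the fetal male germ line of mice, bring DNA methylation to the transposon genes in the nucleus. Tudor domain proteins (TDRD) and RNA helicases hold the machinery together in granules beside mitochondria, and most of these genes are silent in adult somatic tissue, where repressive chromatin and DNA methylation at their promoters are known to keep them off. A line such as PANC-1 has no germ cells, so the levels below are those of a carcinoma culture, and in bulk RNA fewer expressing cells cannot be told apart from less RNA per cell.

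Promoter sequences are shown first for the members on which the comparisons turn, with a member that stayed near 0 for contrast. RefSeq promoters (GRCh38.p14, 250 bases before to 50 after the annotated start) were found for 7 of the 10 members. No entry was found for PIWIL2, PIWIL4 and TEX19. Each sequence reads 5′ to 3′ on the gene's strand. Capitals mark an E-box (CACGTG, the site of MAX and MYC type factors) or the motif TTCCCGCC (an E2F6-type site), both searched on both strands; the MAX partner MGA and E2F6 belong to a Polycomb complex known to silence germline genes in mouse embryonic stem cells. The windows are chr1:31815973-31816272 (minus strand) for SPOCD1, chr14:103928206-103928505 (plus strand) for TDRD9, chr12:130337637-130337936 (plus strand) for PIWIL1 and chr10:114179037-114179336 (plus strand) for TDRD1.
SPOCD1: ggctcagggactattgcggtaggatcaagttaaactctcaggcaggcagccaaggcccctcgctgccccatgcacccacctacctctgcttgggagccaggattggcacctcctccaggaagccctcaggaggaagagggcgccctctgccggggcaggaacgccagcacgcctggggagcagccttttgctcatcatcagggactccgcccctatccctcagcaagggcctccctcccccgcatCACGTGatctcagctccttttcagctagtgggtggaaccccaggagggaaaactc
TDRD9: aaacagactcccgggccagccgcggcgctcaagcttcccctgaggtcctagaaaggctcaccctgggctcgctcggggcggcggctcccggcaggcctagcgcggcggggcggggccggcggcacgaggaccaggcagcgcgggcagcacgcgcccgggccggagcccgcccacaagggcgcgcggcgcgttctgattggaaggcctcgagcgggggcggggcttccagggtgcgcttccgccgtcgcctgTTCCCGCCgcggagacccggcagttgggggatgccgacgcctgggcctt
PIWIL1: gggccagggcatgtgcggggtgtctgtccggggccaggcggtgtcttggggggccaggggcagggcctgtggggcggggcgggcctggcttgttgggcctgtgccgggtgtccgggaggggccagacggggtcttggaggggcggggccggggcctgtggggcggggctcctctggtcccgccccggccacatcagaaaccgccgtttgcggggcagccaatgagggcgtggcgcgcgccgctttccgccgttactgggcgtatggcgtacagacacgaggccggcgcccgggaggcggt
TDRD1: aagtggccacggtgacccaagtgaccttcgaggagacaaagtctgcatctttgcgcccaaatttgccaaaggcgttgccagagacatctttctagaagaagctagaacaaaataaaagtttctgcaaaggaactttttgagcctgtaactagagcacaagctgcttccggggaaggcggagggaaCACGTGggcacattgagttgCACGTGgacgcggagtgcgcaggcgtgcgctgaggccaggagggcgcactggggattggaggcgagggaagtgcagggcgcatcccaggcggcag

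The promoters did not share one makeup. Counting the annotated start as position 0, SPOCD1 held 1 E-box from position -5 and TDRD1 held 2, from positions -65 and -45; the motif was present in 7.26% of 35116 RefSeq promoters of this length. TTCCCGCC was found in TDRD9, from position 1, and in 3.16% of those promoters. Neither motif was in the PIWIL1 window. TDRD1 has another entry with the same 2 E-boxes and 21 CpG; MAEL and DAZL have 2 entries each, and the second of each held 1 E-box (positions -211 and -154). So an E-box was found for each of the 3 members that stayed at or near 0 as well as for SPOCD1. CpG dinucleotides, the sites of DNA methylation, numbered 41 in TDRD9, 30 in PIWIL1, 17 in the TDRD1 window shown and 9 in SPOCD1, against a median of 14 over all promoters. The MAEL entries held 60 and 27, the DAZL entries 33 and 29, and the DDX4 entry 1. So counts above the median were found for the members that stayed at or near 0 as well as for TDRD9 and PIWIL1. The RefSeq entries of DDX4 and DAZL, and the second of MAEL, start inside the gene as GENCODE v29 draws it on the same assembly, by 28868 bases for DDX4, so they do not describe the outermost promoter and DDX4 is not shown. A match of letters is a description of the window and not a bound site.

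Summed gene counts were 49439795 to 63747510 per library. In the text, CPM means counts scaled to a common library size with TMM normalisation, and a gene was called changed at a Benjamini-Hochberg adjusted p under 0.05 in edgeR's quasi-likelihood test over 22831 genes. Whether libraries of a group are separate cultures is not in the labels, so the p-values reflect how these libraries vary, perhaps for technical reasons alone. On principal components, combination replicate 2 lay nearer to the chaetocin libraries than combination replicates 1 and 3 did, and the 3 treated libraries numbered 3 were set apart on the next component. Keratin genes KRT8 and KRT18 marked the line, at 2286 ± 181 and 1629 ± 127 CPM in vehicle (SD, n = 3), while CDH5, VWF, PTPRC and CD3E, endothelial and immune genes, had 0 counts there. Other markers of those cells were counted in vehicle: CD68, a macrophage marker also made by other cells, at 164 ± 13.1 CPM, ITGAM at 2.65 ± 0.190, CD14 at 0.496 ± 0.203, KDR at 0.128 ± 0.0504 and CLDN5 at 0.0122 ± 0.0211 CPM. Of 7 markers of testicular germ cells from meiosis to spermatids, PRM1, PRM2 and TNP1, which package sperm DNA, had 0 counts in all 4 groups, and SYCP1 had 1 count, in a chaetocin library. The 3 others were tested, and 2 rose and 0 fell with the combination, while 0 rose and 0 fell with chaetocin. The shares of all tested genes that rose and fell were 20.1% and 18.3% with the combination and 12.6% and 11.9% with chaetocin. Of the 3, 2 also pass the filter in the libraries without chaetocin, and 1 of those rose with the combination. ACRV1 and ACR, acrosome genes, had 1.94 ± 0.170 and 0.285 ± 0.109 CPM with the combination and 1.32 ± 0.162 and 0.136 ± 0.0649 with chaetocin, against 1.21 ± 0.326 and 0.0803 ± 0.0347 in vehicle (edgeR adjusted p = 0.0306 and 0.0457 for the combination). ACR passed the filter only through libraries with chaetocin, so the filter itself fixed its direction. The summed level of the 7 was 9.03 to 11.01 CPM in combination, 8.72 to 10.9 in chaetocin, 13.6 to 24.6 in MLN8237 and 11.7 to 13.1 CPM in vehicle libraries, most of it SYCP3 (7.95, 8.48, 16.6 and 11.01 CPM on average in that order).

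In vehicle cells 4 members were expressed above the filter, and all 4 were higher with chaetocin and higher again in the mean with both compounds, while 3 members at or near 0 counts in vehicle were detected in every library that received chaetocin. SPOCD1 was the highest in fold among the 4, 10.4-fold with chaetocin and 14.2-fold with the combination. PIWIL4 was the most abundant per length in vehicle and changed least. TDRD1, MAEL and DAZL stayed at or near 0 in most libraries. Of the 7 members tested, 7 rose and 0 fell with chaetocin against vehicle, where 12.6% of tested genes rose and 11.9% fell, and the same 7 rose with the combination, where 20.1% rose and 18.3% fell. PIWIL1, TDRD9 and DDX4 passed the filter only through the libraries with chaetocin so the filter itself fixed their direction. The members that also pass in the 6 libraries without chaetocin were PIWIL2, PIWIL4, TEX19 and SPOCD1. Of 20387 tested genes that pass there, 16.8% rose and 20.5% fell with the combination, and 10.6% rose and 13.3% fell with chaetocin. In those 4 members every combination library and every chaetocin library was above every vehicle library. That order was seen in 23.8% of the 20387 genes with the combination and 21.8% with chaetocin.

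**Figure D1:**
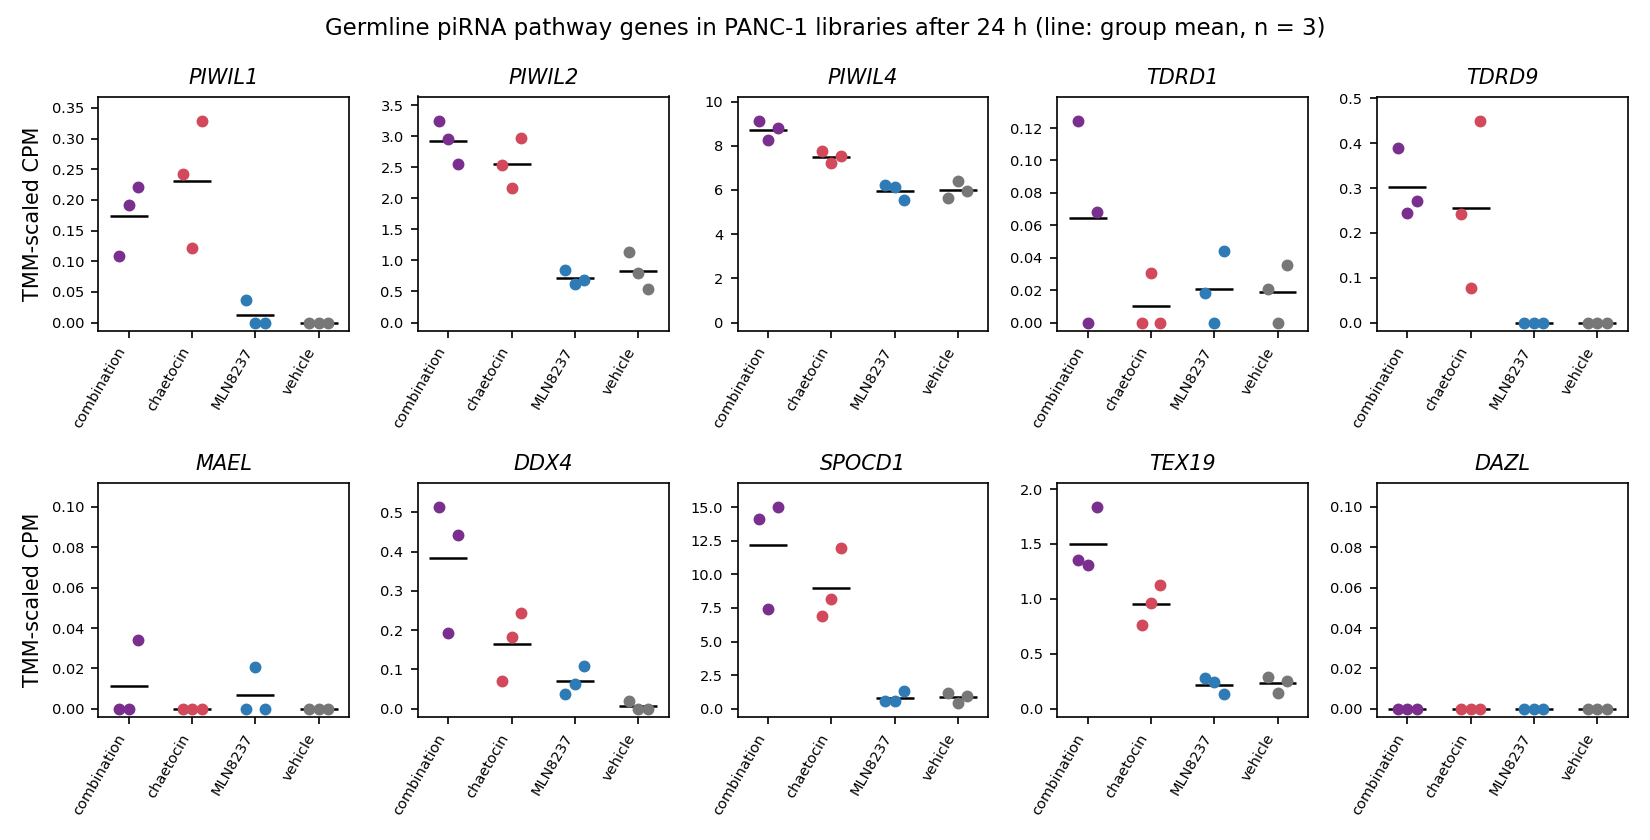
TMM-scaled CPM of the 10 members in each library (points) with the group mean (line, n = 3), in panels with their own vertical scale; groups run from combination and chaetocin to MLN8237 and vehicle. For PIWIL1, PIWIL2, PIWIL4, TDRD9, DDX4, SPOCD1 and TEX19 each chaetocin and combination library lies above each vehicle library, while DAZL is at 0 throughout.

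The PIWI genes encode the proteins that bind piRNAs. PIWIL4 (ENSG00000134627, hg19 chromosome 11, 94277006 to 94354587), whose mouse counterpart carries piRNAs into the nucleus to direct DNA methylation, had 9.13, 8.27 and 8.80 CPM in combination libraries and 7.74, 7.24 and 7.55 CPM in chaetocin libraries. It had 6.23, 6.14 and 5.53 CPM with MLN8237, against 5.64, 6.38 and 5.94 CPM in vehicle. The combination and chaetocin libraries all lay above the vehicle libraries, and the MLN8237 libraries overlapped them. PIWIL4 rose by a log2 fold change of 0.54 ± 0.109 with the combination (SE, edgeR adjusted p = 0.00166) and of 0.33 ± 0.109 with chaetocin (edgeR adjusted p = 0.0435). The chaetocin call was lost under 10 of 20 alternatives (adjusted p 0.00965 to 0.203 over all 20), among them no filter (0.203) and the omission of vehicle replicate 1 (0.154), 2 (0.0721) or 3 (0.116) or of chaetocin replicate 1 (0.126), 2 (0.0896) or 3 (0.116). It was also lost without combination replicate 3 (0.0545) or MLN8237 replicate 1 (0.0589) or 2 (0.062), libraries outside the groups compared. PIWIL4 overlaps FUT4 and RP11-867G2.8 in the table. FUT4, a fucosyltransferase gene, rose by 0.30 ± 0.0953 on the log2 scale with the combination (edgeR adjusted p = 0.0233) and had 0.26 ± 0.0953 with chaetocin (adjusted p = 0.0616). How the authors' counting treated strand is unknown here, so reads of overlapping genes cannot be told apart.

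PIWIL2 (ENSG00000197181, hg19 chromosome 8, 22132810 to 22215076), a PIWI protein that cuts transposon RNA in mouse testis, had 3.25, 2.96 and 2.55 CPM in combination and 2.53, 2.16 and 2.98 CPM in chaetocin libraries. It had 0.846, 0.620 and 0.680 CPM with MLN8237, against 1.13, 0.803 and 0.537 CPM in vehicle. The lowest library with chaetocin stood above the highest without it. PIWIL2 rose 3.56-fold with the combination (log2 fold change 1.83 ± 0.252, edgeR adjusted p = 0.000136) and 3.12-fold with chaetocin (1.64 ± 0.253, edgeR adjusted p = 0.000607). No other gene of the table overlaps it. CTD-2530N21.4, which ends 135 bases from it, did not pass the test in either comparison (log2 0.24 ± 0.453 with the combination and -0.71 ± 0.484 with chaetocin).

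PIWIL1 (ENSG00000125207, hg19 chromosome 12, 130822432 to 130857182), which acts late in male meiosis in mice, was counted 7, 11 and 13 times in combination libraries and 14, 8 and 19 times in chaetocin libraries. It was counted 2, 0 and 0 times with MLN8237 and not at all in vehicle. Set against a floor of 3 counts over the vehicle group, the level was at least 9.08-fold higher with the combination and at least 11.96-fold higher with chaetocin (edgeR adjusted p = 0.00278 and 0.00273). PIWIL1 passed the filter only through the libraries with chaetocin, so its direction in the test was fixed in advance. The call against MLN8237, at 12.8-fold (interval 3.25 to 110), was lost without the treated libraries numbered 3 (adjusted p = 0.0594). This and the other intervals cover counting error only, at the 95% level. The folds against a floor take the treated counts as exact, so they are not bounds at that level. RIMBP2, the nearest gene at higher coordinates, 23500 bases away, was also counted 98 times in combination, 19 in chaetocin, 4 in MLN8237 and 2 in vehicle libraries. RIMBP2 rose with the combination (edgeR adjusted p = 0.000409) and did not pass with chaetocin (log2 2.85 ± 0.999, edgeR adjusted p = 0.054). Like PIWIL1, RIMBP2 passed the filter only through libraries with chaetocin, so its direction was fixed in advance.

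Per length the PIWI genes had lower mean levels than their somatic Argonaute relatives, which carry microRNAs, in each of the 4 groups, although PIWIL4 overlapped AGO4 in combination libraries (1.82 to 2.004 against 1.82 to 2.3 RPKM). PIWIL4 had 1.92 ± 0.0954 RPKM in combination, 1.65 ± 0.0558 in chaetocin, 1.31 ± 0.0832 in MLN8237 and 1.31 ± 0.0823 in vehicle libraries (SD, n = 3, from TMM-scaled counts). AGO2, the Argonaute that can cut its targets, had 14.6 ± 2.71, 10.8 ± 0.46, 4.61 ± 0.622 and 5.30 ± 0.330 RPKM in the same order of groups. AGO2 itself rose with chaetocin, by 1.02 ± 0.135 in log2 units (edgeR adjusted p = 0.000211), and with the combination by 1.46 ± 0.136 (edgeR adjusted p = 8.73e-06). AGO3 at 1.72 ± 0.194 RPKM in vehicle was the Argonaute nearest to PIWIL4, whose highest vehicle library (1.40) stayed below the lowest of AGO3 (1.56).

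**Figure D2:**
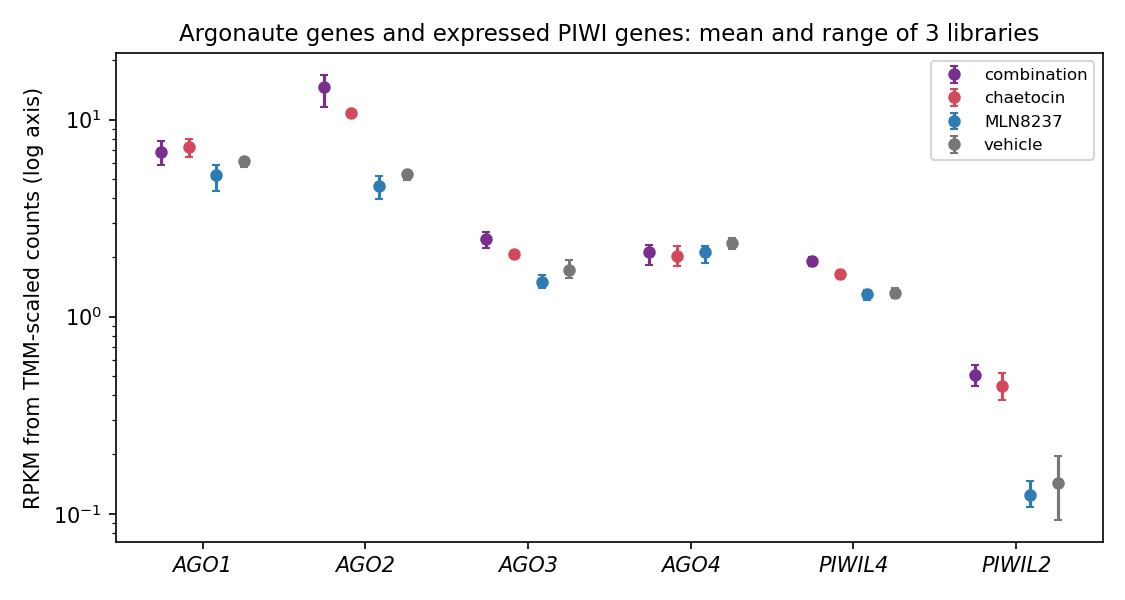
RPKM computed from TMM-scaled counts (log axis) for the 4 AGO genes, PIWIL4 and PIWIL2 in the 4 groups; points are means and bars run from the lowest to the highest of 3 libraries. PIWIL4 lies at 1.31 to 1.92 and PIWIL2 at 0.124 to 0.508, against 4.61 to 14.6 for AGO2.

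The Tudor and helicase genes supply the scaffold of the piRNA granules. TDRD9 (ENSG00000156414, hg19 chromosome 14, 104394799 to 104519004), a Tudor protein with a helicase domain, was counted 25, 14 and 16 times in combination and 14, 5 and 26 times in chaetocin libraries. No count was found in any MLN8237 or vehicle library. The level was at least 16.1-fold higher with the combination and at least 13.1-fold higher with chaetocin than the vehicle floor of 3 counts over the group (edgeR adjusted p = 0.00254 and 0.00596). TDRD9 too passed the filter only through those libraries, so its direction in the test was fixed in advance. C14orf2, 193 bases from TDRD9 in the table, did not pass the test (log2 -0.17 ± 0.178 with the combination and -0.04 ± 0.178 with chaetocin).

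DDX4 (ENSG00000152670, hg19 chromosome 5, 55033845 to 55112985), the human Vasa helicase and a standard marker of germ cells, was counted 33, 11 and 26 times in combination and 4, 12 and 14 times in chaetocin libraries. It was counted 2, 3 and 5 times with MLN8237, against 1, 0 and 0 in vehicle. All 3 treated groups lay above vehicle, without overlap. With 1 count over the vehicle group, the ratio was 61.5 for the combination (counting interval 10.7 to 2465), 26.3 for chaetocin (4.37 to 1072) and 10.7 for MLN8237 (1.52 to 463). The first pair passed the test (edgeR adjusted p = 0.000461 and 0.0074) and MLN8237 did not (edgeR adjusted p = 0.516, unadjusted 0.0216). DDX4 passed the filter only through the libraries with chaetocin, so the direction of the first pair was fixed in advance. In the MLN8237 comparison 6.96% of tested genes had every treated library above every vehicle library. DDX4 overlaps SLC38A9, an amino acid transporter gene with 2443 counts in combination, 2354 in chaetocin, 1657 in MLN8237 and 1879 in vehicle libraries, which did not pass the test with either chaetocin treatment.

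TDRD1, a Tudor protein that binds PIWI proteins, was counted 8, 0 and 4 times in combination and 0, 2 and 0 times in chaetocin libraries, against 1, 0 and 2 times both with MLN8237 and in vehicle. Its ratio to vehicle was 3.52 with the combination (counting interval 0.949 to 19.4) and 0.584 with chaetocin (0.0488 to 5.10), so no difference from vehicle was detectable at this depth. The ratio of the combination to chaetocin was 6.02 (1.34 to 55.4), on 12 counts against 2, with combination replicate 2 at 0 counts. MAEL, a granule protein needed for transposon silencing in mice, was counted 2 times in combination replicate 3, 1 time in MLN8237 replicate 2 and nowhere else. DAZL, an RNA-binding protein that germ cells need to develop, had 0 counts in all 12 libraries, which allows up to 0.0166 CPM in the combination and chaetocin groups, 0.0202 in MLN8237 and 0.0189 in vehicle. TDRD1, MAEL and DAZL did not pass the filter and were not tested.

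SPOCD1 and TEX19 act beside the PIWI proteins. SPOCD1 (ENSG00000134668, hg19 chromosome 1, 32256023 to 32281652), which in mouse fetal germ cells links the nuclear PIWI protein to DNA methylation, had 14.1, 7.45 and 15.02 CPM in combination and 6.91, 8.14 and 11.99 CPM in chaetocin libraries. It had 0.570, 0.578 and 1.32 CPM with MLN8237, against 1.19, 0.438 and 0.966 CPM in vehicle. Combination replicate 2, the library that lay near the chaetocin libraries on principal components, had about the level of the chaetocin libraries, and the 6 libraries with chaetocin did not overlap the 6 without it. The rise was a log2 fold change of 3.82 ± 0.41 with the combination (edgeR adjusted p = 2.43e-05) and 3.38 ± 0.406 with chaetocin (edgeR adjusted p = 0.000106). RP11-84A19.3, which overlaps one end of SPOCD1 (hg19 chromosome 1, 32254731 to 32256923), rose as well, by 4.48 ± 0.568 with the combination and 4.15 ± 0.573 with chaetocin (edgeR adjusted p = 7.59e-05 and 0.00029). RP11-84A19.3 had 290 counts in combination, 230 in chaetocin, 23 in MLN8237 and 11 in vehicle libraries. With so few counts outside chaetocin, the filter may itself have fixed that direction. BAI2, 25529 bases away at lower coordinates, fell by 0.97 ± 0.175 on the log2 scale with the combination (edgeR adjusted p = 0.00084) and by 0.58 ± 0.173 with chaetocin (edgeR adjusted p = 0.0267).

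TEX19 (ENSG00000182459, hg19 chromosome 17, 80317123 to 80321652), a mammal-specific germline and placental protein that restrains retrotransposons in mice, had 1.35, 1.31 and 1.84 CPM in combination and 0.764, 0.960 and 1.13 CPM in chaetocin libraries. It had 0.276, 0.248 and 0.132 CPM with MLN8237, against 0.294, 0.146 and 0.250 CPM in vehicle. The combination libraries lay above the chaetocin libraries, and both above every library without chaetocin. TEX19 rose 6.51-fold with the combination (log2 2.70 ± 0.325, edgeR adjusted p = 5.28e-05) and 4.13-fold with chaetocin (2.04 ± 0.329, edgeR adjusted p = 0.000789). SECTM1, the nearest gene at lower coordinates, 25173 bases away, also rose, by log2 changes of 0.73 ± 0.128 and 0.85 ± 0.128 with the combination and with chaetocin (edgeR adjusted p = 0.0007 and 0.000538).

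**Figure D3:**
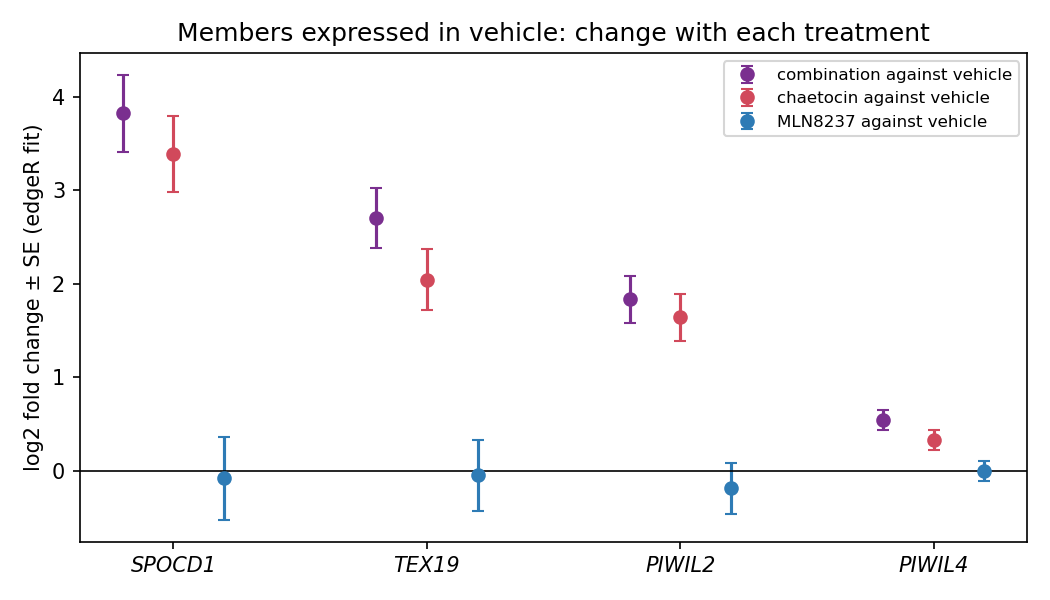
Log2 fold change against vehicle with its SE from the edgeR fit (vertical axis) for the 4 members that pass the filter without chaetocin (horizontal axis), with the combination, chaetocin and MLN8237. SPOCD1 stands at 3.82 and 3.38 with the combination and chaetocin and PIWIL4 at 0.54 and 0.33, while the MLN8237 values lie between -0.19 and -0.01.

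The order of levels per length changed with treatment. In vehicle libraries PIWIL4 (1.31 RPKM) stood apart from PIWIL2, SPOCD1 and TEX19 (0.143, 0.122 and 0.119 RPKM), whose ranges overlapped. In combination libraries PIWIL4 (1.92) and SPOCD1 (1.72 ± 0.584) overlapped, followed by TEX19 (0.775 ± 0.151) and PIWIL2 (0.508 ± 0.0611), which did not overlap their neighbours. With chaetocin alone SPOCD1 (1.27 ± 0.374) again overlapped PIWIL4 (1.65), and TEX19 (0.491 ± 0.0936) overlapped PIWIL2 (0.445 ± 0.071). DDX4, TDRD9 and PIWIL1 were the lowest of the 7 tested members in both groups, at 0.1, 0.0551 and 0.033 RPKM with the combination and 0.0431, 0.0468 and 0.0438 RPKM with chaetocin. Pearson correlations of log2 CPM between pairs of the 7 tested members ran from 0.732 to 0.951 over the 12 libraries, which fall into those with and without chaetocin and so are not independent points.

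MLN8237 alone moved no member past the test. Of 7 tested, 0 rose and 0 fell (1 at an unadjusted p under 0.05, which was DDX4), and 0 were called by DESeq2 or limma-voom; 0.00438% of tested genes rose and 0% fell. The log2 fold changes of the members expressed in vehicle were -0.19 ± 0.27 for PIWIL2, -0.08 ± 0.445 for SPOCD1, -0.05 ± 0.379 for TEX19 and -0.01 ± 0.11 for PIWIL4. These signs turned when single libraries were left out. At 0 counts in both groups, TDRD9 could show no change in this comparison.

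Adding MLN8237 to chaetocin gave no call in any member. Of 7, 0 rose and 0 fell (2 at an unadjusted p under 0.05, TEX19 and DDX4, and 0 called by DESeq2 or limma-voom), with 0% of tested genes called either way. Without combination replicate 2, 573 genes were called over the whole table and still 0 members. The combination stood at 1.501 ± 0.292 and chaetocin at 0.95 ± 0.181 CPM for TEX19 (log2 fold change 0.66 ± 0.28, edgeR adjusted p = 0.391). For DDX4 it stood at 0.383 ± 0.169 against 0.165 ± 0.0879 CPM (1.21 ± 0.544, edgeR adjusted p = 0.417). Every combination library was above every chaetocin library for TEX19 and PIWIL4, where 9.54% of tested genes had that order. The interaction, which sets the log2 change of the combination against the sum of the single log2 changes, was called for 0 members (0 at an unadjusted p under 0.05, lowest edgeR adjusted p 0.435, and 0 called by DESeq2 or limma-voom), again with 0% of tested genes called. For TDRD9, with 0 counts in MLN8237 and vehicle libraries, the interaction could not be estimated (SE 563), so its test decides nothing. Against MLN8237 the combination was higher for the 7 tested members, where 23.3% of tested genes rose and 22.7% fell. PIWIL1, TDRD9 and DDX4 passed the filter only through the libraries with chaetocin, so the filter itself fixed their direction here too. The 4 members that pass without chaetocin all rose, among them SPOCD1 by a log2 change of 3.905 ± 0.414 and PIWIL2 by one of 2.02 ± 0.257 (edgeR adjusted p = 2.15e-05 and 7.23e-05).

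The members' detection moved with a wider gain of low counts in the same libraries. The 6 libraries with chaetocin had counts for 30980 to 33443 genes, and the 6 without it for 27987 to 29771, at summed counts of 55033617 to 63747510 and 49439795 to 57539126. Of 30077 genes with at most 3 counts over the vehicle group, 3.24% had at least 3 counts in every combination library, 1.7% in every chaetocin library and 0.0598% in every MLN8237 library. PIWIL1, TDRD9 and DDX4 met that measure in the combination and chaetocin groups, and TDRD1, MAEL and DAZL did not. Among tested genes with a mean under 1 CPM over all libraries, 27.3% rose with the combination and 15% with chaetocin. Markers of the line, and some markers of other cells, moved in libraries with chaetocin too. The 6 epithelial genes summed to 1847 to 2178 CPM in combination, 2250 to 2420 in chaetocin, 4348 to 5128 in MLN8237 and 4042 to 4644 CPM in vehicle libraries. The 4 endothelial genes summed to 1.47 to 4.54 CPM in combination, 1.46 to 1.82 in chaetocin, 0.0551 to 0.207 in MLN8237 and 0.0715 to 0.182 CPM in vehicle libraries, and most of the difference was VWF (3.04 ± 1.61 and 1.41 ± 0.196 CPM with the combination and chaetocin, against 0 in vehicle), the only one of the 4 that passed the filter. KDR had 0.355 ± 0.268 and 0.133 ± 0.00971 CPM, against 0.128 ± 0.0504 in vehicle. PTPRC had 0.667 ± 0.25 and 0.38 ± 0.0896 CPM, against 0 in vehicle. Both VWF and PTPRC passed the filter only through libraries with chaetocin, so the filter itself fixed their direction. Of 4 immune markers tested, 2 rose and 0 fell with the combination, and 1 rose and 0 fell with chaetocin. Among the 3 that pass without chaetocin, 1 rose with the combination and 0 with chaetocin, and 0 fell. Of all genes that pass there, 16.8% rose and 20.5% fell with the combination, and 10.6% and 13.3% with chaetocin. Of 3 fibroblast markers tested, 0 rose and 2 fell with the combination, and 0 rose and 0 fell with chaetocin. Of all tested genes, 20.1% rose and 18.3% fell with the combination, and 12.6% and 11.9% did with chaetocin. The part of these shifts and of the wider gain in the members' values was not tested.

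Other genes of the piRNA pathway, from a list of 27, followed in part. Of these, 18 passed the filter, and 9 rose and 3 fell with the combination (median log2 fold change 0.65, against 0.02 over all tested genes), while 5 rose and 1 fell with chaetocin (median 0.59, against 0.01). Over all tested genes, 20.1% rose and 18.3% fell with the combination, and 12.6% rose and 11.9% fell with chaetocin. Among the 14 that pass in the libraries without chaetocin, 6 rose and 3 fell with the combination (median 0.27) and 3 rose and 1 fell with chaetocin (median 0.16), where 16.8% and 20.5% of such genes did with the combination and 10.6% and 13.3% with chaetocin. Genes for enzymes that shape piRNAs were among those that rose. PNLDC1, which trims the tail of piRNAs, had 1.77 ± 0.642 CPM with the combination and 0.731 ± 0.084 with chaetocin, against 0.157 ± 0.00928 in vehicle (edgeR adjusted p = 0.000112 and 0.00506). Only libraries with chaetocin brought PNLDC1 past the filter, so the filter itself fixed its direction. PLD6, a nuclease at the mitochondrial surface that makes the head ends of piRNAs, had 17.8 ± 1.25 and 15.9 ± 1.62 CPM, against 9.72 ± 1.01 in vehicle (edgeR adjusted p = 0.000106 and 0.000869), and overlaps MPRIP. HENMT1, which methylates the finished tail, had 47.0 ± 4.83 and 43.4 ± 1.44 CPM, against 28.4 ± 3.11 in vehicle (edgeR adjusted p = 0.000762 and 0.00433).

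STK31, a Tudor protein with a kinase domain, had 7.23 ± 1.68 CPM with the combination and 6.26 ± 0.867 with chaetocin, against 2.11 ± 0.152 in vehicle (edgeR adjusted p = 2.42e-05 and 0.000111). EXD1, a partner of the PIWI machinery in mice, had 2.63 ± 0.814 CPM with the combination (edgeR adjusted p = 0.000457) and 0.979 ± 0.202 with chaetocin (adjusted p = 0.0866), against 0.481 ± 0.115 in vehicle. PRMT5, a ubiquitous arginine methyltransferase whose marks on PIWI proteins are read by Tudor domains, fell, to 110 ± 15.4 CPM with the combination and 124 ± 6.99 with chaetocin, against 158 ± 5.79 in vehicle (edgeR adjusted p = 0.00126 and 0.0198). C19orf84, which partners SPOCD1 in mice and was picked after its values were seen, had 56 counts in combination, 52 in chaetocin, 2 in MLN8237 and 4 in vehicle libraries. Tudor genes with broader expression, TDRD7 and TDRKH, did not pass (log2 -0.02 ± 0.0998 and -0.14 ± 0.108 with the combination). STK31, EXD1 and PRMT5 overlap other annotated genes, as PLD6 does.

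**Figure D4:**
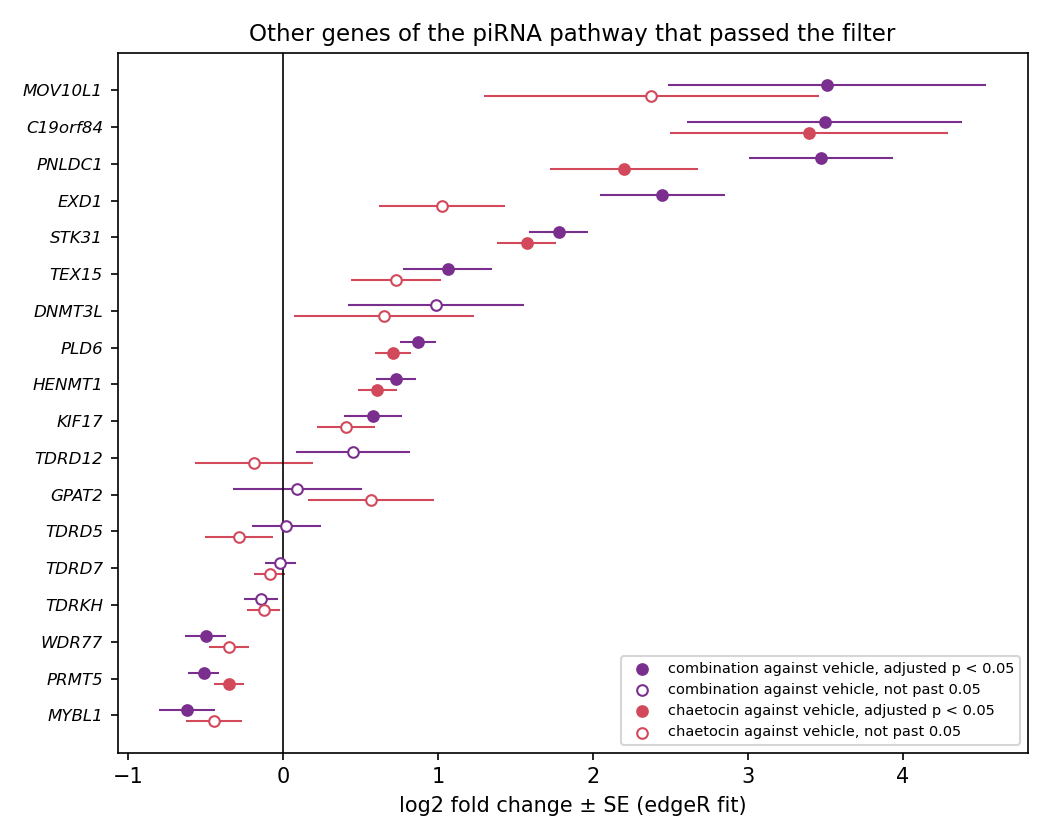
Log2 fold change against vehicle with its SE from the edgeR fit (horizontal axis) for the 18 other piRNA pathway genes that passed the filter, with the combination and with chaetocin; filled points have an adjusted p under 0.05. PNLDC1, at 3.47 and 2.20, and STK31, at 1.78 and 1.57, lie to the right, and PRMT5, at -0.51 and -0.35, to the left of 0. Only libraries with chaetocin brought PNLDC1 past the filter, which fixed its direction.

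The Argonaute and microRNA genes, 13 of 13 tested, gave 4 higher and 2 lower with the combination (median log2 fold change 0.17) and 2 higher and 0 lower with chaetocin (median 0.14), beside 20.1% higher and 18.3% lower of all tested genes with the combination and 12.6% and 11.9% with chaetocin. Besides AGO2, DGCR8, which recognises microRNA precursors, rose with both treatments (0.88 ± 0.128 and 0.64 ± 0.128, edgeR adjusted p = 0.000191 and 0.00307), and AGO3 and TNRC6C rose with the combination. XPO5, the exporter of microRNA precursors, and TARBP2, a partner of Dicer, fell with the combination (-0.37 ± 0.129 and -0.35 ± 0.125, edgeR adjusted p = 0.0386 and 0.0414). DGCR8, AGO3, TNRC6C, XPO5 and TARBP2 overlap other annotated genes, among them TRMT2A for DGCR8 and POLR1C for XPO5.

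Germ cell and meiosis genes outside the pathway were 36 in the list and 19 after the filter. With the combination 11 rose and 1 fell (median log2 fold change 1.005), and with chaetocin 8 rose and 0 fell (median 0.92), or 8 and 1 (median 0.44) and 7 and 0 (median 0.22) among the 15 that pass without chaetocin. Of all tested genes 20.1% rose and 18.3% fell with the combination, and 12.6% and 11.9% did with chaetocin. Among tested genes that pass without chaetocin the shares were 16.8% and 20.5% with the combination and 10.6% and 13.3% with chaetocin. MEIOB, a DNA-binding protein of meiotic recombination, had 3.75 ± 1.116 CPM with the combination and 3.27 ± 0.753 with chaetocin, against 0.473 ± 0.104 in vehicle (edgeR adjusted p = 2.59e-05 and 8.27e-05), and overlaps FAHD1. DMC1, the meiotic recombinase, had 8.77 ± 1.43 and 7.82 ± 0.786 CPM, against 3.63 ± 0.227 in vehicle (edgeR adjusted p = 4.18e-05 and 0.000228). SMC1B, a meiotic cohesin subunit, and HSF2BP, a recombination factor, also rose with both treatments, as did TEX14 and SOHLH2, which have roles in spermatogenic cells in mice. HSF2BP, TEX14 and SOHLH2 overlap other annotated genes, among them H2BFS for HSF2BP and CCDC169 for SOHLH2. SYCP3 and SYCP2, of the synaptonemal complex that pairs chromosomes, did not pass in either comparison.

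Genes known to keep germline genes silent were 26 in the list, all tested. Of these, 7 rose and 4 fell with the combination (median log2 fold change 0.10), and 6 rose and 1 fell with chaetocin (median 0.04); the shares of all tested genes were 20.1% and 18.3% with the combination and 12.6% and 11.9% with chaetocin. The DNA methyltransferase gene DNMT3B had 19.9 ± 3.04 CPM with the combination and 17.1 ± 3.06 with chaetocin, against 9.44 ± 0.639 in vehicle (edgeR adjusted p = 0.000771 and 0.00566). ATF7IP, which stabilises the H3 lysine 9 methyltransferase SETDB1, rose with both (1.17 ± 0.212 and 0.69 ± 0.21, edgeR adjusted p = 0.000883 and 0.0287). L3MBTL2, a subunit of the Polycomb complex that holds E2F6, fell by 0.60 ± 0.107 and by 0.45 ± 0.107 in log2 (edgeR adjusted p = 0.000819 and 0.00811), while PCGF6 of the same complex rose by 0.36 ± 0.0822 and 0.37 ± 0.0822 (edgeR adjusted p = 0.0041 and 0.00532). HELLS, a remodeller needed for DNA methylation, and EHMT2, a lysine 9 methyltransferase, fell with the combination (-0.53 ± 0.0944 and -0.49 ± 0.0994, edgeR adjusted p = 0.000751 and 0.00183). With chaetocin they had -0.17 ± 0.0941 and -0.21 ± 0.0991 and did not pass. L3MBTL2, PCGF6, HELLS and EHMT2 overlap other annotated genes.

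PIWIL4 had the highest mean CPM of the members over the 12 libraries. Among the tested genes whose log2 CPM was most like it were ZNF674, CD200R1, LMO7 and RP1-313I6.12, with Pearson correlations of 0.986 to 0.988 over 12 libraries that share the split by chaetocin. LMO7 averaged 39.0 CPM with the combination, 27.0 with chaetocin, 13.2 with MLN8237 and 12.7 in vehicle.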

How the data were processed

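For each gene the deposited table holds, per the file headers, whole-number counts and RPKM for every library beside position and length. The submitters' processing notes name CASAVA 1.9, TopHat, HTSeq and hg19 without roles; the annotation and strand setting are not given. The deposited RPKM values were not used; RPKM in the text is TMM-scaled CPM divided by the table's gene length in kilobases (33.7% of lengths are multiples of 3, so they are not coding lengths alone). Coordinates of genes are those of the table, read as hg19, and promoters are RefSeq's on GRCh38.p14; the builds were not mixed.

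The deposited counts went unchanged into edgeR 4.0.16 (R 4.3.3): default expression filter by group, TMM, 4 group means over 12 libraries, robust quasi-likelihood F tests, Benjamini-Hochberg adjustment over all tested genes. The procedure was tested on simulated data. Fold changes carry the SE of the fit. Replicates differed beyond sampling noise (lowest chi-square per gene 5.74). Members, lists and tests were chosen with earlier results of these data known. All 10 members were described. Up to 6 genes of a list were named by smallest p in either comparison of chaetocin or the combination with vehicle. AGO4, C19orf84, TDRD7, TDRKH, SYCP2 and SYCP3 were among genes named outside that rule. Alternatives were RLE scaling, no filter, a stricter filter (1 CPM in 6 libraries), DESeq2 1.42.0, limma-voom (limma 3.58.1), only the groups compared, a replicate block and each library left out, and, chosen after seeing the data, the omission of the 3 treated libraries numbered 3. A marker gene and a gene named by the rule of likeness are not reported here.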

Additional observations from a re-analysis of the deposited data

How the results depend on the processing

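Of 764 values of single members under alternatives, 737 kept their direction and their side of the threshold, 11 lost the call and 16 changed sign. The 16 were uncalled in the first place. In MLN8237 against vehicle the log2 value of PIWIL4 was 0.0039 with RLE scaling, 0.00411 with DESeq2, 0.0463 without the treated libraries numbered 3, and -0.0491 to 0.0448 over left-out libraries. That of TEX19 was 0.199 without those 3 libraries and -0.296 to 0.198 over left-out libraries, over which SPOCD1 ran from -0.58 to 0.206 and PIWIL2 from -0.43 to 0.0963. TDRD9 ran from -0.205 (without chaetocin replicate 2) to 0.928 in combination against chaetocin. With the stricter filter 3 members (PIWIL2, PIWIL4 and SPOCD1) were measured, and 3 were called in each of chaetocin, the combination against vehicle and the combination against MLN8237. Fitting only chaetocin and vehicle left 4 members measured and 4 called. With no filter 6 were called with chaetocin.

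Over all genes, chaetocin against vehicle gave 5591 calls in the main analysis and 3704 without vehicle replicate 2 (3704 to 7551 over left-out libraries). The combination against chaetocin gave 0 calls in the main analysis, 36 with no filter, 299 with DESeq2, 1 with limma-voom and 0 to 573 over left-out libraries, the highest without combination replicate 2. The interaction gave 2 with no filter and 15 with DESeq2. MLN8237 against vehicle gave 1 call, and 0 with the stricter filter, with only the groups compared, and without vehicle replicate 2 or 3. The replicate numbers are not shown to pair libraries: deviations of same-numbered libraries from their group means correlated at -0.153 to 0.462, above 0.1 in 9 of 18 pairs, and 7 of 12 libraries correlated best with their own number. With the replicate block 7 members were called with chaetocin and 7 with the combination against vehicle. At counts of 0 to 33 per library, PIWIL1, TDRD9 and DDX4 are limited by counting, and TDRD1 and MAEL lie at the floor.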
